A study of Mus musculus with 24 samples.

Results

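The mitochondrial ribosomal protein genes of mouse liver were described in mice without the 3 PAR bZip transcription factors Hlf, Dbp and Tef and in mice that carry them. Members were the rows of the count table whose mouse symbol begins with Mrpl or Mrps and a number, without the pseudogene ending -ps, and whose mean over the 24 libraries was at least 1 CPM, a count scaled to library size. There were 77 such genes among the 54532 rows of the table, 48 with an Mrpl and 29 with an Mrps symbol. All 77 also passed the filter on low counts that left 15090 genes for testing.

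The 2 genotypes were Hlf-/-/Dbp-/-/Tef-/- (knockout, KO) and Hlf+/+/Dbp+/+/Tef+/+ (wild type, WT). Livers came from mice fed ad libitum and aged 12 to 16 weeks, at zeitgeber times (ZT, hours after lights on) 4, 8, 12, 16, 20 and 24. Each genotype and time had 2 libraries of poly(A)-selected RNA, 1 with the letter I and 1 with the letter P in its label, here called set I and set P. Every label also carries the letter M. The labels do not give the meaning of I, P or M or state the sex of the mice, and they do not name the animals behind the libraries. Whether the 2 libraries of a group are from different mice is not stated, and the p-values speak for the spread among these libraries, part of which may be technical.

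Mitochondria keep a ribosome of their own, which translates the few proteins encoded in mitochondrial DNA, all of them parts of the respiratory chain or ATP synthase. Its ribosomal RNAs are mitochondrial transcripts, but every one of its proteins is encoded in the nucleus, translated in the cytosol and imported. Mrpl genes encode proteins of the large subunit, which forms peptide bonds, and Mrps genes those of the small subunit, which reads the messenger RNA. Mrps30 and Mrps18a are exceptions, since their proteins sit in the large subunit. Liver is rich in mitochondria, and the PAR bZip factors are clock-driven activators that bind the D-box.

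Libraries held 14613001 to 19288322 counts. The deleted genes checked the labels: Dbp averaged 0.020 ± 0.038 CPM in KO and 15.4 ± 20.3 CPM in WT livers, Hlf averaged 1.55 ± 1.02 CPM in KO and 72.7 ± 18.1 CPM in WT livers, and Tef 14.7 ± 9.82 CPM in KO and 185 ± 103 CPM in WT livers (SD, n = 12 each). The libraries differed in how a gene's deviation from the median library followed its GC content. Over genes, that correlation lay between −0.31 and 0.01 in the 12 KO libraries, between 0.21 and 0.65 in the 6 WT libraries of set I and between −0.21 and 0.05 in the 6 WT libraries of set P. The WT libraries of set I therefore stood apart, and results are given below for both sets and for set P. Of 5 hepatocyte markers 4 (Alb, Ttr, Apoa1 and Serpina1a) were lower in KO livers and Cps1 was not called, and the 5 summed to 38295 to 63487 CPM in KO and 63162 to 92329 CPM in WT livers, with none at 0 in all libraries. Most of that sum was Alb, with means of 35381 CPM in KO and 62607 CPM in WT livers. In set P 2 of the 5, Alb and Ttr, were lower.

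Averaged over the 6 times, 50 of the 77 genes fell in KO livers and 1, Mrpl33, rose (edgeR quasi-likelihood F-test, adjusted p under 0.05). That is 64.9% of the members lower, where 21.1% of all genes tested were lower, and 1.3% higher, where 12.1% of all genes were higher. The median log2 change of the members was −0.31 and 69 of the 77 were negative; over all genes tested the median was −0.02. Changes ran between −0.81 and 0.32, so the shifts were small for single genes and shared by most of the family. Between genotypes, fewer hepatocytes and less RNA per hepatocyte cannot be told apart in bulk liver, and the part of the lower hepatocyte markers in the members' fall was not tested. Of the Kupffer cell markers 3 of 5 were higher in KO livers, summing to 341 to 534 CPM in KO and 324 to 643 CPM in WT livers, and of the sinusoidal endothelial markers 2 of 5 were higher (343 to 494 CPM in KO and 237 to 379 CPM in WT livers). Of the B cell markers 3 of 4 were lower, summing to 0.616 to 5.6 CPM in KO and 1.33 to 8.42 CPM in WT livers. Of the T cell markers 1 of 4 was higher (1.70 to 6.90 CPM in KO and 1.15 to 3.72 CPM in WT livers), of the stellate cell markers 1 of 5 (235 to 314 CPM in KO and 142 to 290 CPM in WT livers) and of the red blood cell markers 1 of 5 (146 to 418 CPM in KO and 160 to 338 CPM in WT livers). Of 5 cholangiocyte markers 1 was lower and 1 higher (28.2 to 76.6 CPM in KO and 18.7 to 64.3 CPM in WT livers). In set P 2 of the 5 Kupffer cell markers and 1 of the 5 red blood cell markers were higher. Of the 5 sinusoidal endothelial markers 1 was higher there, Clec4g, which was not called over all libraries. No B cell, T cell, stellate cell or cholangiocyte marker was called in set P. No marker of these lists was at 0 in all libraries, and their part was not tested either.

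Summed levels are given per library, with the subunit taken from the symbol, so Mrps30 and Mrps18a are counted with the small subunit. The 48 large-subunit genes summed to 1084 to 1201 CPM in the 12 KO libraries, against 1191 to 1363 CPM in WT set P and 1315 to 1915 CPM in WT set I. The 29 small-subunit genes summed to 533 to 583 CPM in KO libraries, against 593 to 663 CPM in WT set P and 672 to 953 CPM in WT set I. For the small subunit all 12 KO libraries lay below all 12 WT libraries; for the large subunit the highest KO library, at ZT08, passed the lowest WT library, also at ZT08. The sums of the 2 subunits moved together, with a large-to-small ratio of 1.98 to 2.09 in KO and 1.94 to 2.06 in WT libraries. The KO libraries were alike between the sets (1676 ± 58.2 CPM over all members in set I and 1726 ± 39.3 CPM in set P, SD, n = 6 each), whereas WT libraries differed (2304 ± 337 CPM in set I and 1896 ± 96.5 CPM in set P). The median member had a coefficient of variation of 8.75% over the 12 KO and 20.4% over the 12 WT libraries, and within set P of 8.64% over KO and 9.20% over WT libraries.

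**Figure D1:**
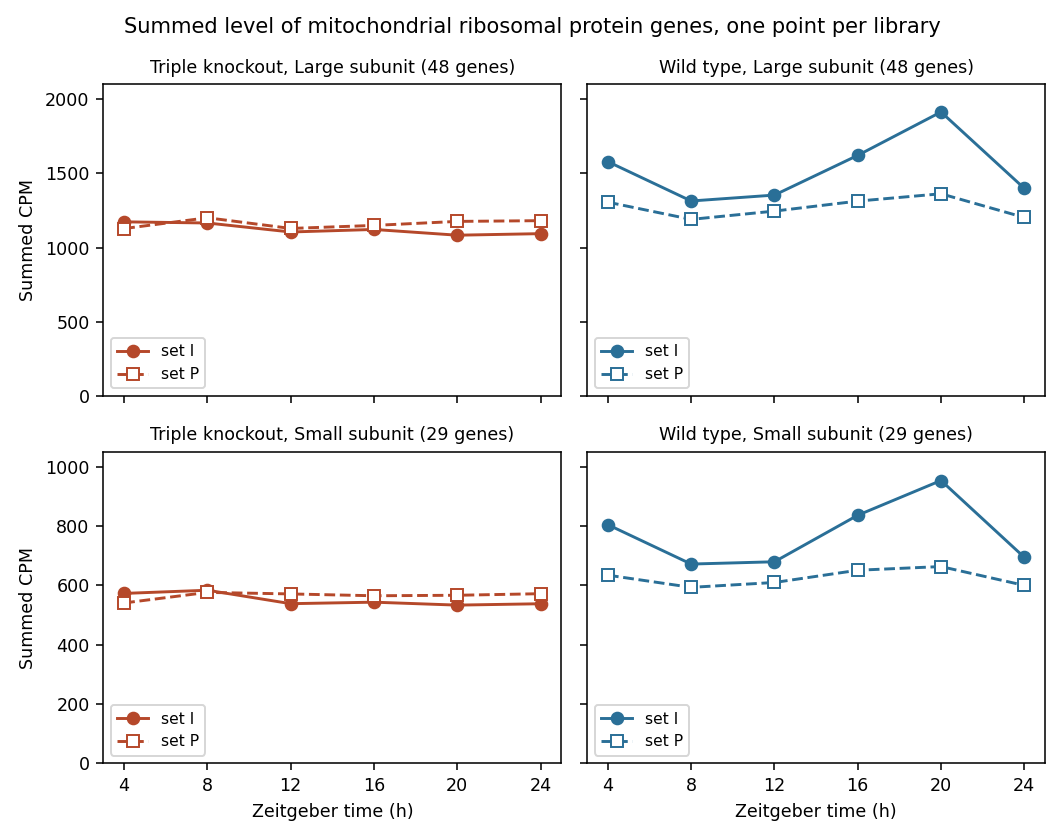
Summed CPM of the 48 large-subunit (top) and 29 small-subunit genes (bottom), by symbol, so that Mrps30 and Mrps18a are in the bottom row. The horizontal axis is zeitgeber time in hours, with KO left and WT livers right. Each point is 1 library, with filled circles for set I and open squares for set P. KO libraries stay between 1084 and 1201 CPM for the large subunit at all times, while WT set I reaches 1915 CPM at ZT20 and WT set P 1363 CPM.

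In set P alone, with 6 KO and 6 WT libraries and time as a term in the fit, 12 of the 77 genes fell (15.6%), where 6.33% of all genes fell, and none rose, where 6.71% of all genes rose. At an unadjusted p under 0.05 there were 30 members in set P (39%), where 29.2% of all genes were, and DESeq2 was not run on set P. The median log2 change was −0.13 in set P, and all 12 called genes were among the 50. In set I alone 42 genes fell (54.5%), where 14.2% of all genes fell, with a median log2 change of −0.46. A total of 64 members were negative in both sets and 70 were more negative in set I. Over the 77 members the changes in the 2 sets, which share no library, correlated at r = 0.71, as a description. The change differed between the sets by an interaction test for 38 members (49.4%), where 29% of all genes differed. For 37 of these 38 the log2 change in set P lay above that in set I, and for Mrps18c below it. The correlation of level with GC content averaged −0.23 in KO and −0.06 in WT libraries of set P, so set P had a smaller gap of the same sign; its part in the result was not tested.

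**Figure D2:**
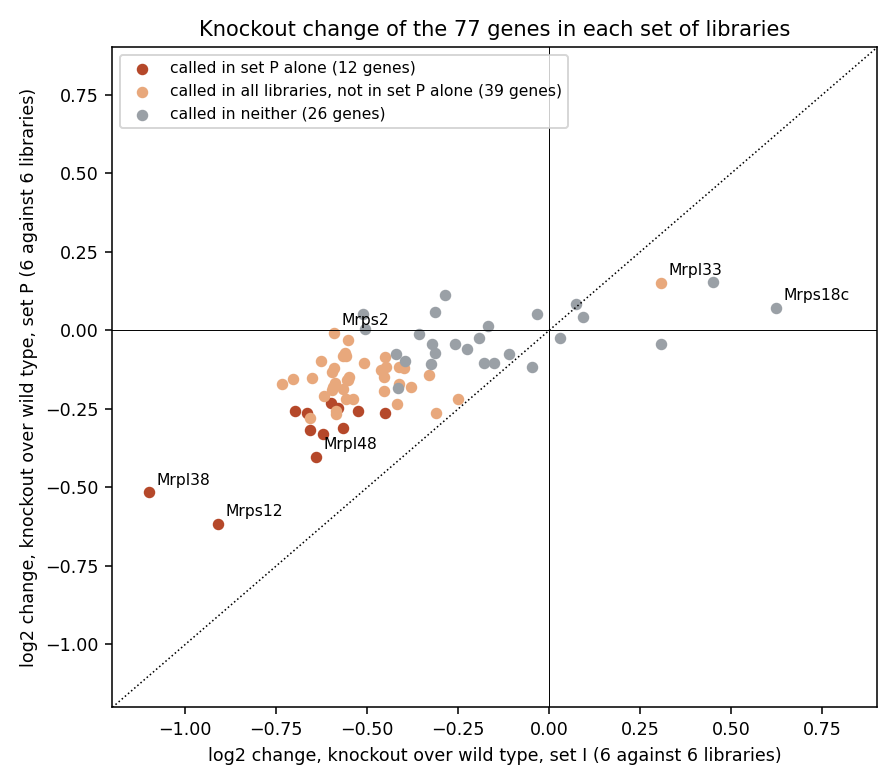
Log2 change of each of the 77 genes, KO over WT, in set I (horizontal) and set P (vertical), each from 6 against 6 libraries; the dotted line marks equal change and colours mark the calls. Most points lie above the dotted line and below 0, that is, lower in KO livers in both sets and more so in set I.

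The 12 genes that fell in set P come from several parts of the ribosome. Mrpl38, Mrpl40 and Mrpl48 belong to the central protuberance at the top of the large subunit. Mrpl11 forms the base of the stalk that receives translation factors, Mrpl45 lies at the exit of the peptide tunnel, and Mrpl15 and Mrpl44 are other large-subunit proteins, as is the product of Mrps30. Mrps12 is the small-subunit protein of the decoding centre, and Mrps5, Mrps15 and Mrps16 are further small-subunit proteins with bacterial counterparts. With transcript length and GC content modelled per library, 10 of the 12 kept their call in set P; Mrpl40 (adjusted p = 0.158) and Mrpl44 (adjusted p = 0.0566) did not.

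Mrpl38 (mm10 chromosome 11, 116131817 to 116138868, minus strand) had the largest change of the family. Its lowest, median and highest values were 21, 34.1 and 44.2 CPM in the 12 KO libraries, against 38.2, 55.3 and 99.5 CPM in the 12 WT libraries. The groups overlapped only through WT set P at ZT08, at 38.2 CPM, which lay below the KO libraries of both sets at ZT08 and ZT20. Its log2 change was −0.81 (SE 0.12, edgeR adjusted p = 0.000192) over all libraries, −0.52 (SE 0.11, adjusted p = 0.0124) in set P and −0.33 (adjusted p = 0.0669) with length and GC modelled.

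Mrps12 (chromosome 7, 28739641 to 28741820, minus strand) had 7.67, 9.47 and 11.9 CPM in KO livers and 11.8, 16.4 and 22.5 CPM in WT livers as lowest, median and highest. Only the highest KO library and the lowest WT library crossed, by a small margin. The log2 change was −0.77 (SE 0.11, edgeR adjusted p = 0.000242) over all libraries and −0.62 (SE 0.13, adjusted p = 0.0109) in set P, the lowest of the family there. With length and GC modelled over all libraries its adjusted p was 0.0572, and within set P 0.019.

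Mrpl48 (chromosome 7, 100545751 to 100608301, minus strand) averaged 14.3 ± 1.25 CPM in KO and 20.5 ± 3.07 CPM in WT livers (SD, n = 12 each). In set P all 6 KO libraries (13.1 to 15.4 CPM) lay below all 6 WT libraries (17.4 to 20.1 CPM). Its log2 change was −0.52 over all libraries (SE 0.07, edgeR adjusted p = 0.000189), −0.40 in set P (SE 0.06, adjusted p = 0.00206) and −0.73 with length and GC modelled. It kept its call under every alternative tried for it, with adjusted p up to 0.0251. A pseudogene row, Mrpl48-ps, held 154 counts in all KO and 94 in all WT libraries.

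Mrpl11 (chromosome 19, 4962147 to 4966999, plus strand) had 19.1, 22.3 and 23.1 CPM in KO livers and 25.9, 28.6 and 44.4 CPM in WT livers as lowest, median and highest. No KO library reached the lowest WT library. Mrpl45 (21.3 to 25.1 CPM in KO and 25.4 to 43.8 CPM in WT livers) and Mrps15 (14.4 to 17.5 CPM in KO and 18.3 to 27.1 CPM in WT livers) were separated in the same way. These 3 of 77 members (3.9%) had all 12 KO libraries below all 12 WT libraries, where 0.921% of all genes did. In set P 7 members (9.09%) were so separated, the 3 named with Mrpl15, Mrpl40, Mrpl48 and Mrps5, where 2.4% of all genes were. The log2 changes over all libraries were −0.49 for Mrpl11, −0.47 for Mrpl45 and −0.45 for Mrps15 (SE 0.08 to 0.09). The call of Mrps15 over all libraries was lost with length and GC modelled (adjusted p = 0.446).

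Mrpl15, at 58.5 CPM the member with the highest mean, averaged 48.7 ± 4.91 CPM in KO and 68.3 ± 13.7 CPM in WT livers (SD, n = 12 each). The highest KO library (58.5 CPM, set I) passed the lowest WT library (55.1 CPM, set P). The log2 change was −0.48 (SE 0.07, edgeR adjusted p = 0.000339) over all libraries and −0.33 (SE 0.06, adjusted p = 0.00647) in set P. Mrps16 averaged 19 ± 1.31 CPM in KO and 27.3 ± 8.27 CPM in WT livers, with a log2 change of −0.50, and −0.26 in set P. Mrps5, the bacterial S5 counterpart, averaged 42.0 ± 3.24 CPM in KO and 55.3 ± 7.94 CPM in WT livers (−0.40, and −0.26 in set P). Mrps21 completed the 8 largest falls, at 17.9 ± 1.29 CPM in KO and 25.4 ± 7.57 CPM in WT livers (−0.48), but was not called in set P (adjusted p = 0.0526). The order of these falls depended on the correction: with length and GC modelled Mrps21 had −0.14 and Mrpl15 −0.97. The calls of Mrpl11, Mrpl15, Mrpl44, Mrpl45, Mrpl48, Mrps5 and Mrps16 held over all libraries, in each set alone and with length and GC modelled.

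**Figure D3:**
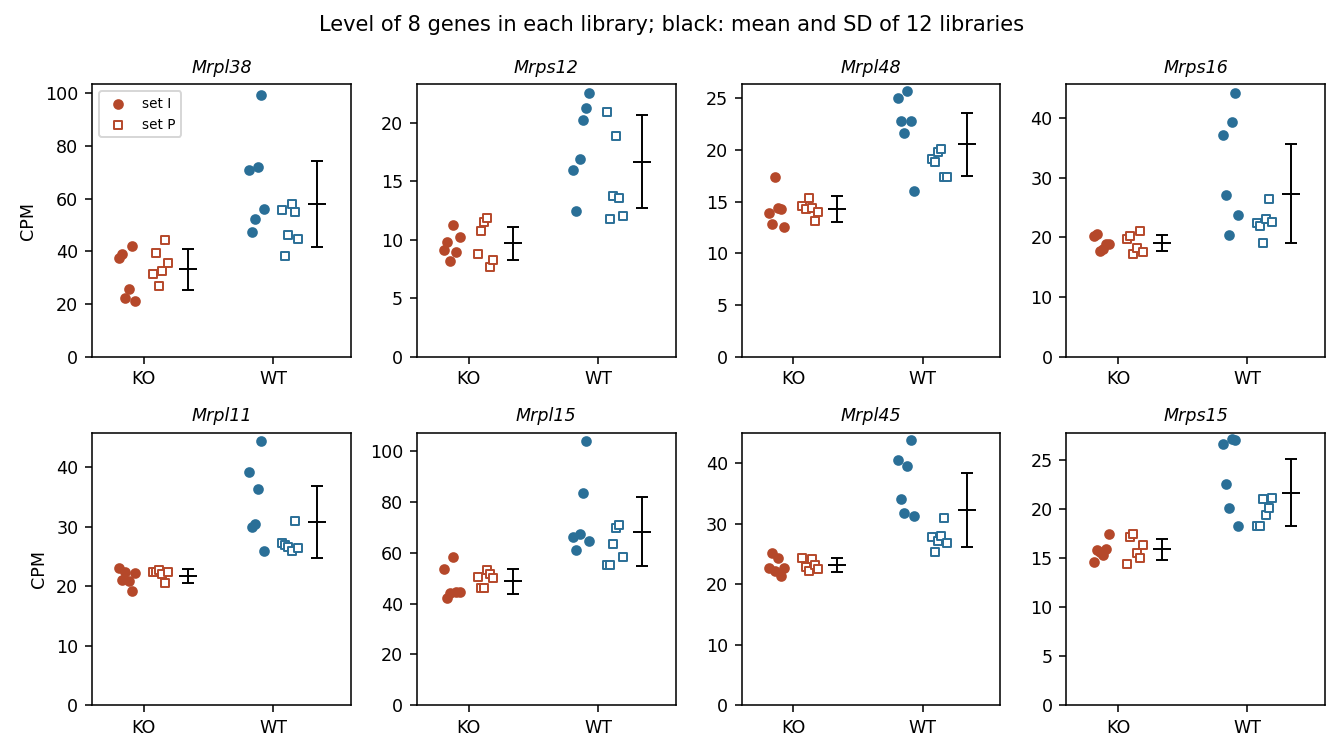
CPM of 8 genes called in set P, with KO left of WT in each panel; filled circles are set I, open squares set P, and the black bar is the mean with the SD of 12 libraries. The KO libraries of the 2 sets overlap in every panel, and for Mrpl38 they spread widely, between 21 and 44.2 CPM. The highest WT values come from set I, as for Mrpl11 with 44.4 CPM against at most 30.9 CPM in WT set P.

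By place in the ribosome, all 3 stalk genes fell over all libraries. Mrpl12, whose protein forms the stalk and has also been linked to mitochondrial RNA polymerase, averaged 25.4 ± 3.28 CPM in KO and 33.1 ± 7.90 CPM in WT livers (−0.37, SE 0.10, edgeR adjusted p = 0.0128). Mrpl10, which anchors it, averaged 28.3 ± 2.03 CPM in KO and 38.3 ± 9.94 CPM in WT livers (−0.42, SE 0.11). In set P neither was called (adjusted p = 0.39 for Mrpl12 and 0.192 for Mrpl10). With length and GC modelled the change of Mrpl12 was −0.02 (adjusted p = 0.898) and that of Mrpl10 −0.22, still called, as was Mrpl11. Of 6 central protuberance genes 5 fell, and 3 in set P; the other was Mrpl18 (29.5 ± 2.15 CPM in KO and 27.8 ± 1.52 CPM in WT livers). With length and GC modelled 2 of the 6 were lower, Mrpl46 and Mrpl48, and Mrpl18 was called higher (0.21, adjusted p = 0.0255). Of 5 genes at the tunnel exit 4 fell, and 1 in set P, Mrpl45; Mrpl24 missed the threshold (−0.22, adjusted p = 0.0502), and with length and GC modelled 2 of the 5 were lower, Mrpl17 and Mrpl45. Mrpl58, a peptidyl-tRNA hydrolase built into the large subunit that frees stalled peptides, had a log2 change of −0.43 and was not called in set P.

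The 3 paralogs of bacterial S18 take alternative or separate places in the ribosome, and their changes had both signs. Mrps18b averaged 15.2 ± 1.23 CPM in KO and 20.5 ± 4.51 CPM in WT livers (−0.42, edgeR adjusted p = 0.00564). Mrps18a averaged 21.5 ± 2.38 CPM in KO and 27.7 ± 6.34 CPM in WT livers (−0.36, adjusted p = 0.00674). With length and GC modelled their changes were −0.17 for Mrps18b, still called, and −0.08 for Mrps18a, no longer called (adjusted p = 0.258). Mrps18c averaged 6.73 ± 0.728 CPM in KO and 5.47 ± 1.58 CPM in WT livers, the most positive change of the family (0.32, SE 0.14), which missed the threshold (adjusted p = 0.0869) and was called in 6 of the 35 alternatives run for it, with adjusted p between 0.0187 and 0.774. In set P none of the 3 was called, and Mrps18c had 6.09 to 8.35 CPM in KO and 5.29 to 7.50 CPM in WT livers, which overlap.

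The falls were spread over both subunits and both origins. Of the large-subunit symbols 31 of 48 fell, and of the small-subunit symbols 19 of 29, with the same median log2 change of −0.31. Among the 44 members numbered after bacterial proteins (up to 36 for Mrpl and 21 for Mrps) 31 fell, and among the 33 with later numbers, given to proteins found in mitochondrial ribosomes, 19 fell, with medians of −0.31 and −0.29. In set P 6 fell in each of these 2 classes.

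The other 27 members did not fall: 26 were not called and 1 rose. Mrpl33, the only called rise, averaged 9.72 ± 0.816 CPM in KO and 8.33 ± 1.36 CPM in WT livers (0.24, SE 0.07, edgeR adjusted p = 0.0191). Its call was lost in set P (adjusted p = 0.339) and with length and GC modelled (adjusted p = 0.11). It was 1 of 4 members positive at all 6 times, with Mrpl1, Mrpl18 and Mrps18c, none of which was called; 45 members were negative at all 6 times. Of the 26 members not called, Mrps34 was the lowest in level, at 1.31 ± 0.392 CPM in KO and 1.43 ± 0.561 CPM in WT livers. Its exons overlap those of Nme3 on the same strand and of Mapk8ip3 on the opposite strand, so its level is uncertain. Per kilobase of the longest transcript, member levels ran between 0.729 CPM for Mrps34 and 51.3 CPM for Mrpl20, with a median of 13.4 CPM.

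Time by time, the members' change was most negative at ZT20. Their median log2 change was −0.38 at ZT04, −0.09 at ZT08, −0.20 at ZT12, −0.40 at ZT16, −0.61 at ZT20 and −0.17 at ZT24, where all genes tested had medians between −0.03 and 0.01. No member was called at ZT04, ZT08, ZT12, ZT16 or ZT24, where 0.696%, 0.603%, 1.15%, 1.01% and 0.384% of all genes were called lower. At an unadjusted p under 0.05 there were 22, 2, 4, 31 and 3 members at those times (28.6%, 2.6%, 5.19%, 40.3% and 3.9%), where 17.3%, 8.14%, 11.6%, 18.1% and 6.29% of all genes were. The members' share thus lay above that of all genes at ZT04 and ZT16 and below it at ZT08, ZT12 and ZT24. In the WT libraries of set I, the correlation of level with GC content was 0.58, 0.31, 0.27, 0.61 and 0.21 at those times. Without the 6 WT libraries of set I the members' medians were −0.15, −0.02, −0.13, −0.21 and −0.05. The part of the GC trend in this pattern by time was not tested. DESeq2 called 0, 0, 1, 2 and 0 members lower at those times. At ZT20 8 members fell (10.4%), where 2.47% of all genes fell, and 55 (71.4%) had an unadjusted p under 0.05, where 31.7% of all genes had. With the set letter as a replicate block, 39 members fell at ZT20 (50.6%), where 12.5% of all genes fell. A genotype by time interaction was called for no member and for 0% of all genes, and no member had an unadjusted p under 0.05, where 6.4% of all genes had. With the replicate block the interaction was called for 7 genes and with no filter on low counts for 639, none of them a member. Length offsets alone gave 6 genes, length and GC offsets 1 and the block with both offsets 7, again without a member.

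The 8 genes at ZT20 were Mrpl11, Mrpl12, Mrpl15, Mrpl36, Mrpl58, Mrps12, Mrps18a and Mrps30. Mrpl12 had 21.5 and 20.3 CPM in KO livers and 52.0 and 28.9 CPM in WT livers at this time, set I first. Mrpl36, a small zinc-binding protein of the large subunit, had 15.7 and 14.4 CPM in KO livers and 39.3 and 22.1 CPM in WT livers. Mrpl15 had 44.5 and 51.7 CPM in KO livers and 104 and 70.9 CPM in WT livers. In each of these the WT library of set I was far above that of set P, and for 57 of the 77 members the WT set I library at ZT20 was the highest of all 24. Summed over the members, ZT20 had 1617 and 1743 CPM in KO and 2868 and 2026 CPM in WT livers. That WT set I library also had the strongest trends with GC content (r = 0.65) and with log2 transcript length (r = −0.27). Without it no member was called at ZT20, and without the set P library of the same group 64 were; without either KO library of ZT20 none was. Without all 6 WT libraries of set I the median change at ZT20 was −0.30 and 2 members fell.

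**Figure D4:**
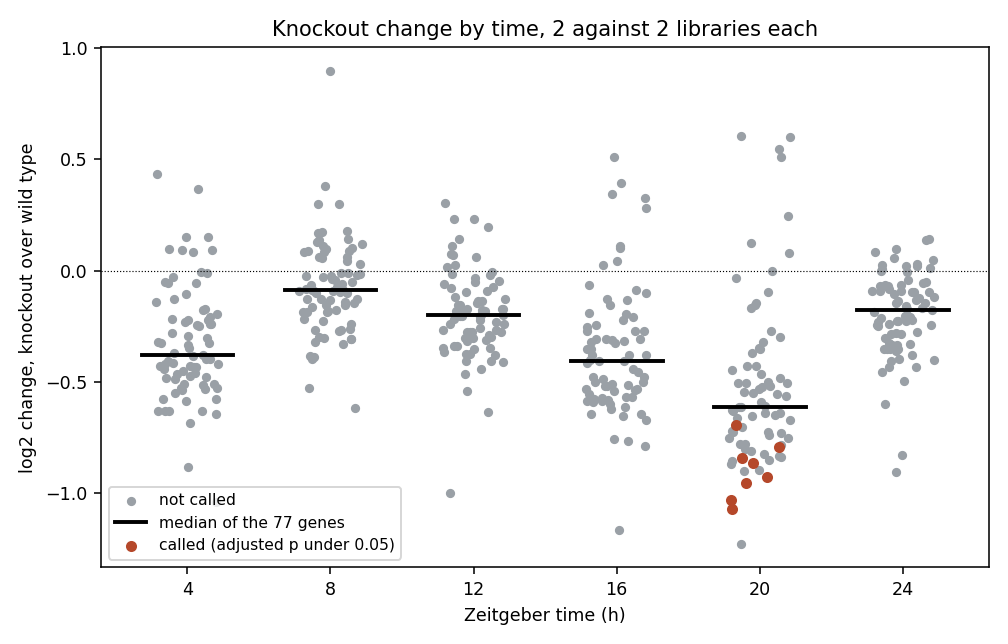
Log2 change, KO over WT, of the 77 genes at each zeitgeber time in hours, from 2 against 2 libraries; red points are called, grey points are not, and the black line is the median. The median is negative at all 6 times and reaches −0.61 at ZT20, the only time with called members.

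Rhythms over 24 h were called for few members. In KO livers no member was called, where 3.57% of all genes were, and 1 member, Mrps9 (1.3%), had an unadjusted p under 0.05, where 15% of all genes had. In WT livers 2 members (2.6%) were called, Mrpl34 and Mrpl4, where 8.67% of all genes were, and 13 (16.9%) had an unadjusted p under 0.05, where 22.5% of all genes had. A replicate block raised the WT count to 5 (6.49%), where 10.9% of all genes were called, adding Mrpl15, Mrpl36 and Mrpl57. In set P alone none was called in KO livers, where 5.24% of all genes were, or in WT livers, where 5.55% were, and 6 members (7.79%) had an unadjusted p under 0.05 in each genotype, where 20.1% of all genes had in KO and 19.1% in WT livers. The rhythm did not differ between genotypes past the threshold for any member or any gene (0%). With no filter on low counts it differed for 72 genes, none of them a member. In the main fit 4 members, Mrpl12, Mrpl57, Mrpl34 and Mrps26 (5.19%), had an unadjusted p under 0.05, where 5.24% of all genes had.

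Mrpl34, a small basic protein of the large subunit (chromosome 8, 71464959 to 71465747, plus strand), had in KO livers 11.2, 10.3, 9.03, 14.4, 11.7 and 12.9 CPM in set I and 10.1, 10, 11.1, 11.5, 13.0 and 10.6 CPM in set P, ZT04 to ZT24. In WT livers it had 12.8, 8.25, 10.6, 18.8, 30.6 and 19.7 CPM in set I and 13.7, 9.72, 10.6, 15, 15.3 and 11.1 CPM in set P. Both WT sets were lowest at ZT08 and highest at ZT20, with a higher crest in set I. The fitted log2 amplitude, the height of the curve above its mean, was 0.18 in KO livers (edgeR adjusted p = 0.76) and 0.61 in WT livers (adjusted p = 0.00389) with a WT peak at ZT 20.4. In set P the amplitudes were 0.16 in KO and 0.25 in WT livers, and neither was called.

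Mrpl4, counterpart of a bacterial protein at the peptide tunnel, had amplitudes of 0.14 in KO livers (edgeR adjusted p = 0.834) and 0.43 in WT livers (adjusted p = 0.0227), with a WT peak at ZT 20.2. Its KO libraries lay between 17.3 and 27.2 CPM and its WT libraries between 17.4 and 43.4 CPM, with the WT maximum at ZT20 in set I and at ZT16 in set P. Its averaged change of −0.31 (adjusted p = 0.0326) lost its call in 14 of 24 fits that left out 1 library. In these fits the count of members with a WT rhythm ran between 1 and 8.

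**Figure D5:**
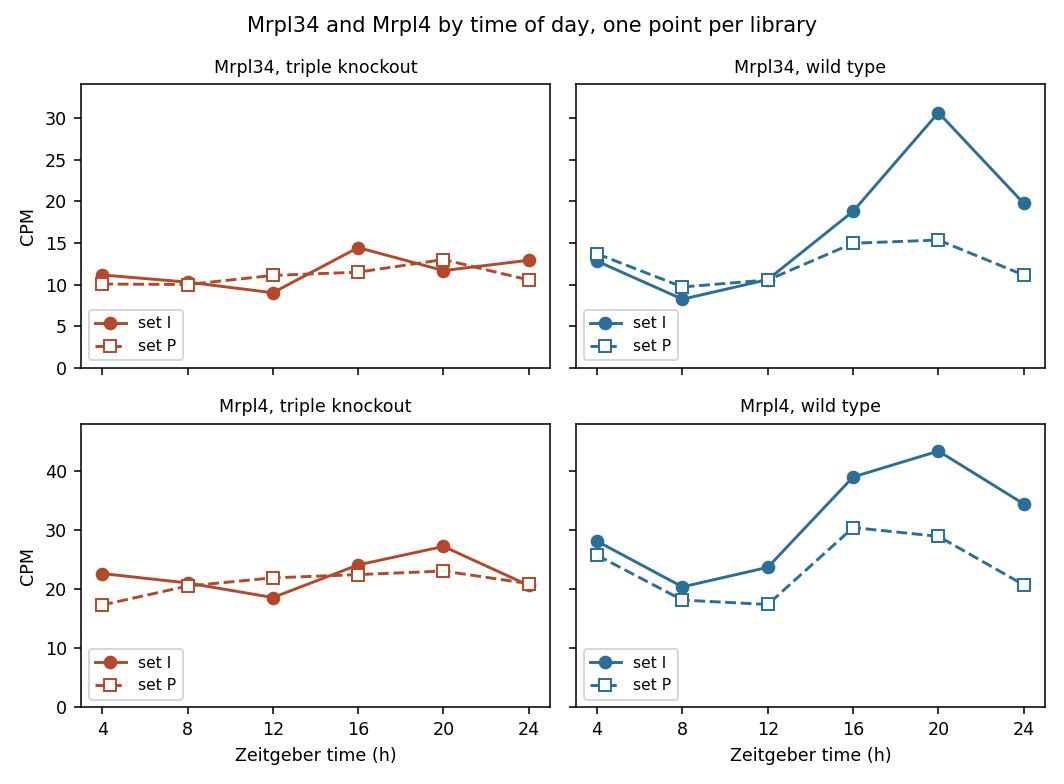
CPM of Mrpl34 (top) and Mrpl4 (bottom) by zeitgeber time in hours in KO (left) and WT livers (right); each point is 1 library, filled circles for set I and open squares for set P. For Mrpl34 the KO libraries stay between 9.03 and 14.4 CPM, and WT set I reaches 30.6 CPM at ZT20.

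The phase of the fitted curves is given as a description. In KO livers 13 of 77 members had their fitted peak between ZT15 and ZT24, and in WT livers 64. Between ZT18 and ZT21 there were 6 in KO and 42 in WT livers. In set P the wider window held 23 members in KO and 49 in WT livers, and the narrower 10 and 19. The narrow WT grouping was thus weaker in set P, and the share of all genes with such peaks was not counted. Median log2 amplitudes were 0.09 in KO and 0.15 in WT livers over both sets, and 0.10 in KO and 0.11 in WT livers in set P. Mrps9, with the smallest KO rhythm p of the family, had its fitted peak at ZT 8.2 in KO and ZT 8.0 in WT livers and amplitudes of 0.18 and 0.19. When the 6 WT libraries of set I were left out, 8 members were called rhythmic in KO livers (10.4%), where 17.6% of all genes were.

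Gene features were compared with the changes. Members had a median longest transcript of 1884 bases against 3145 for all genes tested, and a median GC content of 49.7% against 49.2%. Over the 77 members the log2 change correlated with GC content at r = −0.42 and with log2 length at r = 0.14, as a description of genes that share libraries. Modelling both per library left 37 members lower (48.1%), where 15.7% of all genes were lower, and 28 of these were among the 50. That correction reversed the relation within the family, to r = 0.67 with GC content and −0.68 with log2 length. Of the 38 shorter members 9 were then lower, and of the 39 longer members 28, where without it 26 and 24 were. So which members were called depended on the correction, while the median stayed negative (−0.21).

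Genomic position and neighbours were examined next. Mrpl45, Mrpl10, Mrps23 and Mrpl27 lie on chromosome 11 at 6.92, 6.65, 2.13 and 4.26 Mb from the deleted Hlf gene, and all 4 fell, as did 46 of the 73 other members. Variants linked to the targeted allele cannot be told apart from the deletion for these 4. Mrps23 and Mrpl27 each lost the call in 3 of the 24 fits without 1 library, those without WT set I at ZT04, ZT08 or ZT16. Exons of 32 members overlap another gene, 25 of them on the opposite strand only, and since the strand setting of the counting is not given in the sources used here those reads may be shared; 19 of the 32 fell, and 31 of the other 45. One such pair is Mrpl43 and Twnk, the mitochondrial DNA helicase. A total of 18 members start within 1000 bases of a protein-coding gene that runs the other way. Of the 17 partners tested 7 fell and 0 rose, where 21.1% of all genes fell and 12.1% rose. Of the 11 members that fell in these pairs, 5 had a partner that fell too. The other falling partners were Pnpla7 and Fau, beside Mrpl41 and Mrpl49, which were not called. Mrps12 starts 172 bases from Sars2, the mitochondrial seryl-tRNA synthetase, and Sars2 was not called (−0.21, adjusted p = 0.158).

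Promoter windows, from 250 bases before to 50 after the annotated start, came from RefSeq (GRCm38.p6) and were found for 68 members, in 74 windows among 32851. The D-box letters TTANGTAA, searched on both strands like all motifs here, were in none of the 74 member windows and in 2.32% of all windows. The ETS letters CCGGAAG, which GABP and its relatives bind, were in 33.8% of member windows and 8.86% of all windows. The NRF1 core GCATGCGC was in 10.8% of member and 2.71% of all windows, the YY1 letters ATGGCGGC in 14.9% of member and 2.24% of all windows, and the E-box CACGTG in 9.46% of member and 7.15% of all windows. Median GC content was 58.5% in member and 52.7% in all windows. A match is a description of letters and not of binding. Of the 25 members with the ETS letters 17 fell, and of the 11 with the YY1 letters 9. Of the 8 with the NRF1 core 6 fell, and of the 5 with the E-box 4. These counts stand beside 50 of all 77 members (64.9%), and a link between motif and fall was not tested.

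Upstream bases are shown for the members with the largest falls and with the smallest WT rhythm p among those with a window, to let the letters be read; exons of neighbouring genes are left out, and capitals mark a motif match, here the ETS letters of Mrpl34. They are Mrps12 at chr7:28741822-28741991 (minus strand), Mrpl48 at chr7:100608302-100608551 (minus strand) and Mrpl34 at chr8:71464676-71464925 (plus strand), each 5′ to 3′.
Mrps12: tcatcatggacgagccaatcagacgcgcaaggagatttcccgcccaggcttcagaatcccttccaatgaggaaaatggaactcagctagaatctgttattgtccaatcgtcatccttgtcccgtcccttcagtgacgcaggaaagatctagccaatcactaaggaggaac
Mrpl48: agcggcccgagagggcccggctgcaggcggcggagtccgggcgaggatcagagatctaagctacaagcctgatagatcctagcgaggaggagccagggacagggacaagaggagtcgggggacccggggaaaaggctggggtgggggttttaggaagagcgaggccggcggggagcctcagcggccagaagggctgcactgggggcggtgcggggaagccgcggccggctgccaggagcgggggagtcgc
Mrpl34: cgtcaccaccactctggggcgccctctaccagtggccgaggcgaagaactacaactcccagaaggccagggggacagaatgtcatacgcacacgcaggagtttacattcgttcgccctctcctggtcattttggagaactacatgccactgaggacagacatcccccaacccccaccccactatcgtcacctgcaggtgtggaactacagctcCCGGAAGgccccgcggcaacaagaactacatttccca
Their GC contents are 49.4%, 70.4% and 58.0%. None of the other 4 motifs is in these 3 stretches.

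The rest of the mitochondrial translation machinery was described from lists of genes, to be read against the 21.1% of all genes that were lower and 12.1% that were higher, and in set P 6.33% and 6.71%. Of 26 assembly factors of the mitochondrial ribosome 17 fell (65.4%) and none rose, with a median log2 change of −0.40, and in set P 6 fell and 1, Ngrn (0.33), rose. C1qbp, a matrix chaperone needed for mitochondrial translation, averaged 74.7 ± 3.79 CPM in KO and 109 ± 27.1 CPM in WT livers (−0.53, and −0.32 in set P, edgeR adjusted p = 0.00731). Noa1, a GTPase of small-subunit assembly, averaged 9.36 ± 1.09 CPM in KO and 14.7 ± 3.89 CPM in WT livers (−0.64, and −0.44 in set P). Trub2, a pseudouridine synthase, and Mterf4, which recruits an rRNA methyltransferase, had changes of −0.62 and −0.58. Of the 5 further ribosome subunits with other names, Aurkaip1 (−0.42) and Gadd45gip1 (−0.52) fell, and Dap3 (−0.23), Ptcd3 (0.22) and Chchd1 (−0.01) were not called.

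Of 14 translation factors 7 fell (50%) and 1 rose, and in set P 3 fell and 1 rose, Mtrf1l, a peptide release factor, in both (0.65, and 0.45 in set P). The elongation factor Gfm1, which moves the ribosome along the messenger, averaged 87 ± 8.58 CPM in KO and 117 ± 11.5 CPM in WT livers (−0.43, and −0.32 in set P, edgeR adjusted p = 0.00234). Tufm, which delivers aminoacyl-tRNA, averaged 72.6 ± 4.25 CPM in KO and 111 ± 31.7 CPM in WT livers (−0.59, and −0.30 in set P). Gfm2, which recycles ribosomes, and Tsfm, the exchange factor of Tufm, had changes of −0.31 and −0.45. Of 20 mitochondrial aminoacyl-tRNA synthetases and related enzymes 8 fell (40%) and none rose, 4 of them in set P. Yars2 (−0.29), Gatb (−0.47) and Tars2 (−0.47) fell, and Lars2 was called as well but spanned 68.9 to 9042 CPM in WT livers, against 58.3 to 137 CPM in KO livers.

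Of 11 genes for the transcription and copying of mitochondrial DNA 2 fell (Twnk −0.43, Polrmt −0.38), or 18.2%, and 1 rose (Ssbp1 0.24), or 9.09%, neither share above that of all genes, and in set P only Twnk was called. Of 11 nuclear regulators of mitochondrial genes, Esrra (−0.37) and Myc (−0.96) fell (18.2%, again not above the 21.1% of all genes), and none was called in set P. Of 10 mitochondrially encoded messengers tested 1 fell (10% against 21.1% of all genes), mt-Nd1, at 7017 ± 778 CPM in KO and 8547 ± 1018 CPM in WT livers (−0.28), and none was called in set P; their median log2 change was 0.10, against −0.31 for the 77 ribosomal protein genes. Among these messengers mt-Co2, mt-Co3 and mt-Atp6 averaged under 1 CPM in KO and in WT livers, the minimum set for members. By contrast, mt-Co1 averaged 26352 CPM in KO and 26523 CPM in WT livers. The share and the median include these low genes, and the missing calls of mt-Co2, mt-Co3 and mt-Atp6 do not show unchanged messengers. The mitochondrial ribosomal RNAs mt-Rnr1 (−0.17) and mt-Rnr2 (0.24) were not called. Their WT libraries spread widely: mt-Rnr1 spanned 326 to 623 CPM in KO and 355 to 2219 CPM in WT livers. For mt-Rnr2 the span was 526 to 977 CPM in KO and 266 to 2967 CPM in WT livers. The missing calls therefore do not show equal levels. Mitochondrial RNAs are polyadenylated unevenly, so poly(A) selection limits what their levels show.

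Of the 83 rows whose symbol matched, 5 were pseudogene rows and 1, Mrpl53, had no counts in any library. Of the 790 annotated exon bases of Mrpl53, 695 are shared on the same strand with another gene model, and the part of shared reads in its count of 0 was not tested.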

How the data were processed

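Unnormalized gene counts of the 24 libraries were deposited by the authors in a single table with Ensembl IDs. Per the labels' protocols, guanidinium thiocyanate extraction was followed by TruSeq Stranded mRNA library preparation. The submitters' processing notes name STAR 2.4.0i and mm10. How reads were counted, on which annotation and with which strand setting, is not given in the sources used here, so overlapping genes may share reads. Symbols, coordinates, lengths and GC content of the longest transcript came from GENCODE M21.

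CPM are counts over TMM-scaled library sizes. Genotype was tested with edgeR 4.0.16 (R 4.3.3) quasi-likelihood F-tests in 1 fit of 12 group means, and rhythms with a 24 h cosine and sine per genotype. Genes were kept by filterByExpr (minimum 10 counts), and p-values were adjusted with Benjamini-Hochberg over all genes tested and called under 0.05. The standard error is the change divided by the square root of F. Set P was fitted alone with genotype and time. Alternatives were DESeq2 1.42.0, RLE scaling, no filter, a replicate block, length and GC offsets per library and leaving out libraries. Fits were checked on simulated counts. These held no difference between the sets, no pairing and no trend with GC content or length, so the check cannot speak to those features. The members and lists were chosen with earlier results of these data known.

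Members are named by a rule: the 8 largest falls and rises with 1 sign at all 6 times, up to 12 called in set P, the smallest rhythm p (6 per genotype, 4 for the difference), those within 10 Mb of a deleted gene, the stalk, Mrps12, the S18 paralogs, the highest and lowest level, and up to 4 genes per list. Mrpl58, Mrpl18, Mrpl20, Mrpl1, Mrpl43, Sars2, Chchd1, Ngrn, Mtrf1l and other genes outside it were named after their values were seen.

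Libraries of the same letter and time deviated together: over 11333 genes whose mean log2 CPM reached 1, the correlation between KO and WT deviations was 0.29, 0.20, 0.32, 0.12, 0.13 and 0.14, ZT04 to ZT24, all above 0.1, and over all 15090 genes 0.18, 0.12, 0.23, 0.07, 0.05 and 0.08. The letter was therefore taken as a pairing in the fits with the replicate block, from the data and not from the labels. The block assumes the same shift between the letters in both genotypes. For 38 members (49.4%) and 29% of all genes the genotype by letter test was called, so that assumption does not hold for them. The counts with the block are to be read with this limit. The main fits held no term for the letter. Their counts of 50 members lower and 1 higher on average, 8 lower at ZT20 and 2 with a WT rhythm are thus unpaired. With the replicate block 58 members were lower and 3 higher on average. At ZT20 39 were then lower and 2 higher, and 5 had a WT rhythm.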

Additional observations from a re-analysis of the deposited data

Results flagged for a closer look

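The change between KO and WT livers differed between the 2 sets of libraries for 38 of the 77 members (edgeR quasi-likelihood F-test of a genotype by letter term, adjusted p under 0.05), against 29% of all genes tested. The log2 change in set P minus that in set I was positive, that is, less negative in set P, for the named members Mrpl10 (0.51), Mrpl11 (0.35), Mrpl12 (0.41), Mrpl15 (0.30), Mrpl27 (0.50), Mrpl3 (0.31), Mrpl38 (0.59), Mrpl40 (0.38), Mrpl45 (0.41), Mrps16 (0.45), Mrps18a (0.41), Mrps18b (0.42), Mrps21 (0.39), Mrps23 (0.49) and Mrps5 (0.28). It was negative for Mrps18c (−0.53), whose log2 change was 0.62 in set I and 0.07 in set P. Mrps12, Mrpl48, Mrps15, Mrps30 and Mrpl44 fell in set P and were not among the genes whose change differed between the sets, with adjusted p of 0.279, 0.11, 0.153, 0.177 and 0.0601; a p that misses the threshold does not show equal changes. The trend of level with GC content moved with the sets, as given above, and its part was not tested.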

How the results depend on the processing

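The count of 50 members lower was within 1.5 times under every alternative run for it except in set P alone (12) and without the 6 WT libraries of set I (28); leaving out 1 library gave 40 to 62. The single rise became 0 with no filter, without WT set I and in set P alone, 2 with length and GC offsets, with length offsets alone and with DESeq2, 3 with the replicate block and 4 with the block and both offsets (1 to 3 without 1 library). Members called at ZT04 were 1 with no filter and 1 without WT set I (0 to 1 without 1 library), and at ZT12 1 with no filter and 1 with DESeq2 (0 to 2). At ZT16 they were 1 with RLE scaling, with no filter, with length offsets alone and with the block and both offsets, and 2 with the replicate block and with DESeq2 (0 to 6). At ZT20 the 8 became 41 with the replicate block, 18 with the block and both offsets, 20 with DESeq2, 13 with no filter, 5 with either offset alone, 3 with both and 2 without WT set I (0 to 64). Leaving out 1 library at ZT20 moved this count by over 1.5 times also for WT at ZT04 (14 without set I, 28 without set P), ZT08 (2 without set I), ZT16 (25 without set P) and ZT24 (13 without set I, 5 without set P). The WT rhythm count of 2 became 5 with RLE scaling and with the replicate block, 4 with both offsets, 7 with the block and both offsets and with DESeq2, and 0 in either set alone or without WT set I (1 to 8 without 1 library). The KO rhythm count of 0 became 1 with the block and both offsets and 8 without WT set I (0 to 0 without 1 library). In set P, leaving out 1 of its 12 libraries gave 7 to 13 members lower, 7 without KO or without WT at ZT20, no WT rhythm and 0 to 2 KO rhythms. In each fit without 1 library the lone library of its group is assumed to vary like the others. The genotype by letter count of 38 was 31 with both offsets. The alternatives for set P, the offsets alone and the genotype by letter test were chosen after seeing the data. No named gene changed sign with a call; the cause of each shift was not tested. With 2 libraries a group, single times have little precision.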
